A study of Mus musculus with 8 samples.

Results

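The genes described here encode the machinery that starts and carries DNA replication. They were chosen by name, as a list of 48 genes covering origin recognition and licensing, the replicative helicase, the DNA polymerases with primase, the sliding clamp with its loader and the single-strand binding protein RPA, and the proteins that finish and protect the fork. All 48 were found among the 28431 genes of the count table, and all 48 passed the filter on low counts that left 17970 genes to test. The RNA, selected for polyA tails, came from a line of mouse embryonic stem cells with a MERVL reporter of green fluorescent protein, kept in serum with 2i, a pair of kinase inhibitors that hold stem cells in a naive state. The 8 libraries form 4 groups of 2. The first group received siRNA against Chaf1a with the siRNA pool si309, and the second received siRNA against Chaf1a with the pool si308. The third received siRNA against Chaf1a with negative control siRNA, and is called Chaf1a siRNA alone below. The fourth received negative control siRNA only. Each transfection held 20 pmol of siRNA in total, 10 pmol of each kind where 2 kinds were combined, except that the label of 1 si309 library gives no dose. Transfection was repeated on consecutive days. Both pools were made by dicing RNA copied from different stretches of the mDux gene. All groups share the reporter line, so each result describes 1 line under transient knockdown. The replicates are described as biological, but nothing says that they came from separate cultures, so p-values measure the spread between these libraries, which may in part be technical.

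Replication begins when the origin recognition complex, with CDC6 and CDT1, loads the ring of MCM2 to MCM7 onto DNA before S phase. In S phase CDC45 and the GINS complex join the ring to form the active helicase. Polymerase alpha with primase then lays down primers, and polymerases epsilon and delta extend the leading and lagging strands while held to DNA by the clamp PCNA. CHAF1A, the target of the siRNA, is the large subunit of CAF-1, a histone chaperone that binds PCNA and places histones on new DNA. Embryonic stem cells have short gap phases, so that much of an unsynchronised culture is in S phase, and many of the genes below are known targets of E2F transcription factors, which drive genes for S phase.

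Library totals were 26042851 to 42375685 counts. Chaf1a fell 4.7-fold to 29.8 ± 1.48 CPM (counts scaled to a common library size) with Chaf1a siRNA alone, against 140 ± 0.663 CPM in the negative control (± gives the SD of 2 libraries), and both pools left it low, at 31.4 ± 3.1 CPM with si309 and 34.55 ± 0.927 CPM with si308. mDux, listed under the symbol 4933403O03Rik, averaged 0.193 CPM with si309, 0.0620 CPM with si308, 7.32 CPM with Chaf1a siRNA alone and 0.0303 CPM in the negative control. The 10 markers of embryonic stem cells summed to 4797 and 4829 CPM with si309, 5240 and 5045 CPM with si308, 4903 and 4847 CPM with Chaf1a siRNA alone, and 7100 and 6999 CPM in the negative control. Of these markers 8 fell and 1 rose with Chaf1a siRNA alone against the negative control, where 30.4% of all genes tested fell and 37.1% rose. The 9 markers of the two-cell-like state, which some embryonic stem cells enter when Chaf1a is depleted, summed to 28.6 and 27.5 CPM with si309, 1.57 and 1.84 CPM with si308, 989 and 1043 CPM with Chaf1a siRNA alone, and 1.26 and 1.43 CPM in the negative control, and 9 of 9 rose with Chaf1a siRNA alone. Of 8 fibroblast markers 6 were tested and 5 rose with Chaf1a siRNA alone. The 6 summed to 57.4 and 57.0 CPM with si309, 51.4 and 53.8 CPM with si308, 63.3 and 63.8 CPM with Chaf1a siRNA alone, and 9.19 and 10.1 CPM in the negative control. Col3a1 and Postn had no counts in the negative control, and Lum and Dcn were too low to test in any group. The part of these cell populations in the results below was not tested.

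With Chaf1a siRNA alone most of the replication genes fell. Of the 48 genes, 37 fell and 3 rose against the negative control, and 8 were not called at an adjusted p of 0.05. The fallen genes were 5 of 9 for origin recognition and licensing, 10 of 12 of the helicase, 9 of 11 for polymerases and primase, 8 of 9 for the clamp, its loader and RPA, and 5 of 7 for flap removal, ligation and fork protection. Over all genes tested 30.4% fell and 37.1% rose in this comparison. The replication genes ranged from 10.9 to 731 in mean CPM over the 8 libraries. Among the 9260 genes within that range 45.7% fell and 28.3% rose. The range is wide, and these genes were not matched to the replication genes one by one. The share of replication genes that fell was 77.1%. Their median log2 change was -0.33, against 0.06 over all genes tested and -0.11 over genes in their CPM range. The falls were modest. Fitted changes ran from a log2 change of -1.20 for Pold2 to 0.24 for Gins3, and 10 genes fell by at least 1.5-fold while none rose that far. Among genes in the same CPM range 23.7% changed by at least 1.5-fold in either direction and were called. In 40 of the 48 genes both libraries with Chaf1a siRNA alone lay below both negative control libraries, and in 3 both lay above, as did 52.7% and 33.6% of genes in the CPM range in these directions. The summed level of the 48 genes was 9204 and 9191 CPM with si309, 9374 and 9518 CPM with si308, 9183 and 9198 CPM with Chaf1a siRNA alone, and 12180 and 11870 CPM in the negative control. In RNA from whole cultures, a smaller share of cells in S phase and less RNA of these genes per cell cannot be told apart.

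The scaling bears on these counts. Libraries were also scaled by their totals and not by TMM factors, which are set so that most genes stay level. Then 28 replication genes fell and 8 rose with Chaf1a siRNA alone. Besides Gins3, Pole3 and Rpa2, those that rose included Orc1 and Clspn (log2 changes 0.14 and 0.12, edgeR adjusted p = 0.012 and 0.043). Orc2, Orc6 and Prim2 also rose (log2 changes 0.17, 0.24 and 0.24, adjusted p = 0.003, 0.00017 and 0.00069). The median of all genes tested moved to 0.22 under that scaling and the median of the replication genes to -0.17. A change of scaling factors moves all genes of a comparison by about the same amount. The distance between the medians was therefore bound to stay, and it cannot tell which scaling is right. The authors' deposited table of the same comparison lists 37 of the 48 genes as lowered and 1 as raised at an adjusted p under 0.05. The raised gene was Rpa2. Gins3 and Pole3, which rose in the edgeR test, had authors' adjusted p of 0.13 and 0.061.

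**Figure D1:**
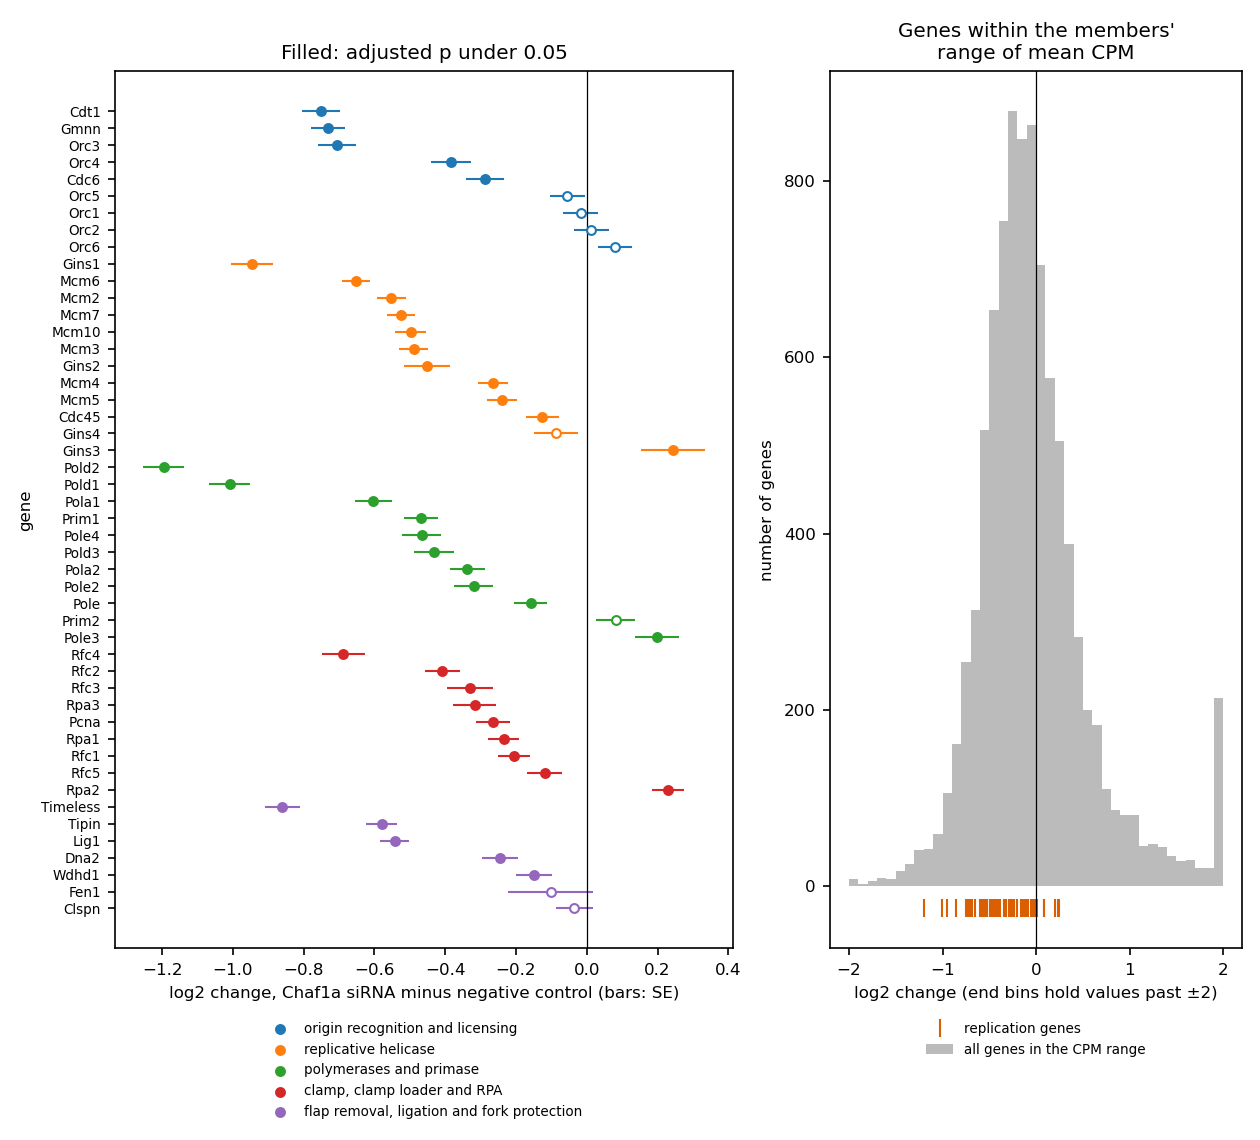
Left, log2 change of each of the 48 replication genes for Chaf1a siRNA alone minus negative control, with bars of 1 SE and filled points for an adjusted p under 0.05, grouped by role; right, the number of genes in each bin of log2 change among the 9260 genes in the same range of mean CPM (grey), with the replication genes as orange ticks below. Pold2 stands lowest at -1.20, only Gins3, Pole3 and Rpa2 have filled points above 0, 42 of the 48 replication genes lie left of 0, and Pold2 lies in the far left tail of the grey distribution.

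Promoter sequence was examined because many replication genes are known E2F targets. RefSeq promoters on GRCm38.p6, running from 250 bases before the annotated start to 50 after it, matched 39 of the 48 genes, with 48 promoters in all. Each was searched on both strands, overlaps allowed, for the E2F words TTCCCGC, with its relatives TTGGCGC, also TTCGCGC, and lastly TTGCCGC. At least 1 word stood in 29 of the 48 promoters, or 60.4%, against 9.57% of all 32851 promoters in the table and 18.1% of the 8728 promoters of genes in the same CPM range. The word CCAAT stood in 24 of the 48 replication promoters, in 37.4% of all promoters and in 38.4% of those in the CPM range. The word TTTGAA, the core of the cell cycle homology region found before many mitotic genes, stood in 10.4%, 17.9% and 11.9% of the same sets. A match describes the sequence and says nothing of binding. Below are the promoters of Mcm6, which holds the most words and is the MCM gene with the largest fall, of Pold1, which holds 1 word and has the second largest fall of all, of Pold2, which fell most and holds none, and of Rpa2, which rose and holds 1. Capitals mark the E2F words on either strand, and each sequence reads 5′ to 3′ on the gene's own strand. They lie at chr1:128359656-128359955 on the minus strand, chr7:44548766-44549065 on the minus strand, chr11:5878207-5878506 on the minus strand (the outer of 2 Pold2 starts), and chr4:132768110-132768409 on the plus strand.
Mcm6: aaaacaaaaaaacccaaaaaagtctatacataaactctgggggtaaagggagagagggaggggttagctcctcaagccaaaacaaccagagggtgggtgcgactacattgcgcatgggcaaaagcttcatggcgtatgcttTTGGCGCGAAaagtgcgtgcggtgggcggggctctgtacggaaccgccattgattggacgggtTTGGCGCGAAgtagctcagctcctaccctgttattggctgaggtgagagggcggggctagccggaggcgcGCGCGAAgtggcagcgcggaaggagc
Pold1: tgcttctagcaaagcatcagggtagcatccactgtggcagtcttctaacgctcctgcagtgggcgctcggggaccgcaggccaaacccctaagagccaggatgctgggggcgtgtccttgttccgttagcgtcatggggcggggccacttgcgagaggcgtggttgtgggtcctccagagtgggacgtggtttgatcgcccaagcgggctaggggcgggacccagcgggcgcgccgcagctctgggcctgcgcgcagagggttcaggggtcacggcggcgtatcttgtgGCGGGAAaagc
Pold2: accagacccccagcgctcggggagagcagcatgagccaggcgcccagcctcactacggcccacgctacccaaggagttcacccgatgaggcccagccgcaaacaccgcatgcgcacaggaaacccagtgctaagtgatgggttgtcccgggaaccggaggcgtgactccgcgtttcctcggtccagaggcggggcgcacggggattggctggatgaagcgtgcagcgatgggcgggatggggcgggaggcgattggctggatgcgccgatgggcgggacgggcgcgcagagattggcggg
Rpa2: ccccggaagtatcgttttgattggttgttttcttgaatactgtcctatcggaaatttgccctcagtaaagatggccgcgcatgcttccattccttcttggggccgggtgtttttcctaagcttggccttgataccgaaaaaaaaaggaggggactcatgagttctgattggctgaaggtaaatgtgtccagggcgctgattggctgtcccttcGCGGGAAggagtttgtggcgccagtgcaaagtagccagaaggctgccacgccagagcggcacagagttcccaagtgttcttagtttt

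Genes with and without such a word mostly fell. Among the 26 genes with a word in at least 1 promoter, 20 fell and 3 rose with Chaf1a siRNA alone, with a median log2 change of -0.36. Among the 13 genes without one, 10 fell and none rose, with a median of -0.25. The difference between these sets was not tested. All 3 genes that rose, Gins3, Pole3 and Rpa2, hold 1 word each, at 41, 48 and 37 bases before the start. Of the genes that fell, Pold2, Timeless, Mcm2 and Pcna hold none, while Pola1 holds 4 and Mcm3 and Mcm5 hold 3 each. The Timeless promoter in the set, at chr10:128237816-128238115, lies inside the gene, whose annotated start is 128232065 on the plus strand. Sequence at that outer start was not searched, so Timeless counts among the 13 without a word for the inner start only.

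**Figure D2:**
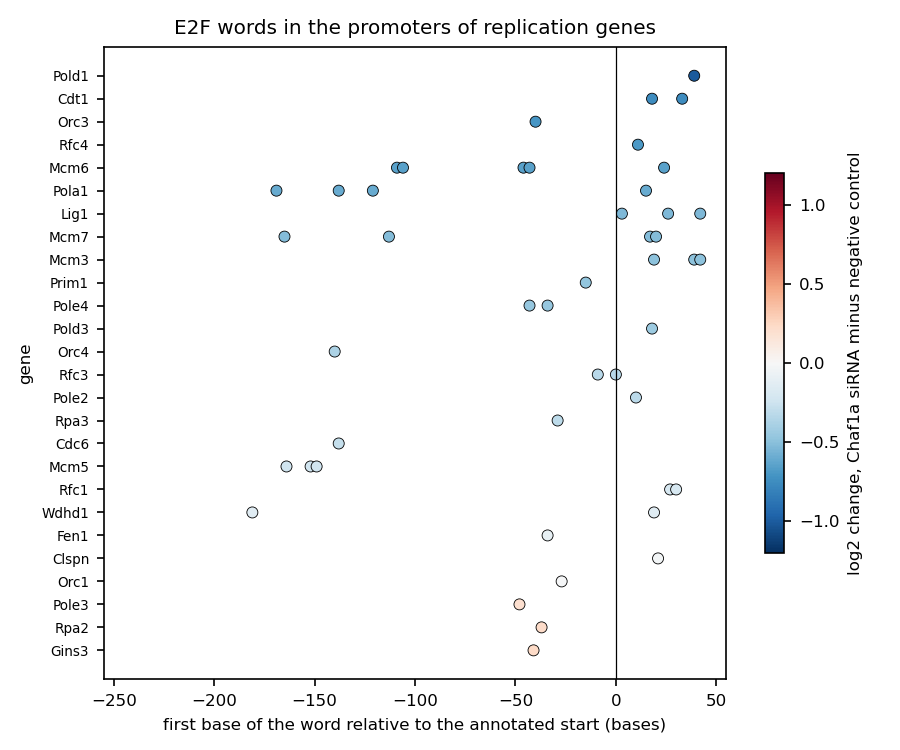
Position of each E2F word in the promoters of the 26 replication genes that hold one, as the distance in bases from the annotated start to the first base of the word, with genes ordered and coloured by log2 change for Chaf1a siRNA alone minus negative control. The words lie on both sides of the start, and the 3 genes that rose, at the bottom, each have 1 word 37 to 48 bases before it.

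The genes for origin recognition and licensing split between subunits. Of 9, 5 fell with Chaf1a siRNA alone and 4 were not called, with a median log2 change of -0.29. The 55.6% that fell is near the 45.7% of genes in the CPM range that fell. Gmnn encodes geminin, which binds CDT1 and prevents a second round of licensing, and had 168 and 169 CPM with si309, 176 and 173 CPM with si308, 159 and 152.5 CPM with Chaf1a siRNA alone, and 268 and 249 CPM in the negative control. All 6 libraries with Chaf1a siRNA lay below both negative control libraries (log2 change -0.73, SE 0.05, adjusted p = 1.9e-11 for Chaf1a siRNA alone). Cdt1, the licensing factor that geminin holds in check, had 103 and 99.4 CPM with si309, 109 and 114 CPM with si308, 100 and 110.1 CPM with Chaf1a siRNA alone, and 175 and 178 CPM in the negative control. It fell 1.68-fold with Chaf1a siRNA alone (log2 change -0.75, SE 0.05, adjusted p = 7.2e-11), so the licensing factor and its inhibitor were lower in the same libraries, by similar amounts. Cdc6, the loader that works with CDT1, fell less, with a log2 change of -0.29 (SE 0.05, adjusted p = 7.8e-05).

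Within the origin recognition complex, Orc3 and Orc4 fell and the other 4 subunits were not called. Orc3 had 127 and 127 CPM with si309, 129 and 127.5 CPM with si308, 114 and 104 CPM with Chaf1a siRNA alone, and 186 and 171 CPM in the negative control. Every Chaf1a siRNA library lay below both controls, and the pools stand between Chaf1a siRNA alone and the negative control (log2 change -0.71, SE 0.05, adjusted p = 2.4e-10 for Chaf1a siRNA alone). Orc4 had 102 and 98.3 CPM with si309, 101 and 89.3 CPM with si308, 91.0 and 89.7 CPM with Chaf1a siRNA alone, and 119 and 117 CPM in the negative control, again with every Chaf1a siRNA library below both controls (log2 change -0.38, SE 0.06, adjusted p = 4.7e-06). Orc1, the subunit that is controlled through the cell cycle, had 166 and 161 CPM with si309, 159 and 158.5 CPM with si308, 188 and 185 CPM with Chaf1a siRNA alone, and 197 and 181 CPM in the negative control. Chaf1a siRNA alone left it within the range of the negative control (log2 change -0.02, SE 0.05, adjusted p = 0.78), and only the libraries with a pool lay below. Orc2, Orc5 and Orc6 had log2 changes of 0.01, -0.06 and 0.08 with Chaf1a siRNA alone and none was called. With library totals Orc1, Orc2 and Orc6 were called higher, as given above.

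All 6 genes of the MCM ring fell, while its partners were mixed. Of 12 helicase genes 10 fell and 1 rose with Chaf1a siRNA alone, with a median log2 change of -0.47. Mcm6, whose promoter is given above, had 553 and 552 CPM with si309, 579 and 575 CPM with si308, 550.5 and 544.5 CPM with Chaf1a siRNA alone, and 876 and 845.5 CPM in the negative control. The 6 libraries with Chaf1a siRNA reached 579 CPM at most, under both controls (log2 change -0.65, SE 0.04, adjusted p = 6.1e-12). Mcm2 had 424 and 419 CPM with si309, 444 and 464 CPM with si308, 427.5 and 441 CPM with Chaf1a siRNA alone, and 636 and 636 CPM in the negative control. Mcm7 had 542 and 535 CPM with si309, 569 and 586 CPM with si308, 538 and 535 CPM with Chaf1a siRNA alone, and 783 and 759.8 CPM in the negative control. Both fell by about the same amount (log2 change -0.55, SE 0.04, adjusted p = 1.7e-10 for Mcm2 and log2 change -0.53, SE 0.04, adjusted p = 2.4e-10 for Mcm7, each with Chaf1a siRNA alone), and in neither did any Chaf1a siRNA library reach a control. The other ring subunits fell with log2 changes of -0.49 for Mcm3, -0.26 for Mcm4 and -0.24 for Mcm5. The Mcm5 call was lost with library totals (log2 change -0.08, adjusted p = 0.088). Mcm10, which helps switch the loaded helicase on, fell by 0.50 on the log2 scale, and Cdc45, the helicase partner, by 0.13 (adjusted p = 0.021). The call for Cdc45 was lost without replicate 0 of the negative control (adjusted p = 0.057) or replicate 1 of Chaf1a siRNA alone (adjusted p = 0.16), and with library totals its log2 change was 0.03.

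The 4 subunits of GINS did not move together. Gins1 had 56.8 and 58.6 CPM with si309, 61.8 and 60.95 CPM with si308, 53.1 and 51.2 CPM with Chaf1a siRNA alone, and 104 and 96.9 CPM in the negative control. It fell 1.93-fold with Chaf1a siRNA alone (log2 change -0.95, SE 0.06, adjusted p = 7.8e-12), more than any MCM gene. Gins2 fell by 0.45 on the log2 scale (adjusted p = 3.1e-06), and Gins4 was not called (log2 change -0.09, SE 0.06, adjusted p = 0.22). Gins3 went the other way, with 19.6 and 19.3 CPM with si309, 19.9 and 19.1 CPM with si308, 18.55 and 17.5 CPM with Chaf1a siRNA alone, and 14.9 and 15.6 CPM in the negative control. All 6 libraries with Chaf1a siRNA lay above both controls (log2 change 0.24, SE 0.09, adjusted p = 0.023 for Chaf1a siRNA alone). That call was the least secure of the 3 rises: it was lost without replicate 0 of the negative control (adjusted p = 0.11), without replicate 0 of Chaf1a siRNA alone (adjusted p = 0.16), with DESeq2 (adjusted p = 0.095) and with no filter on low counts (adjusted p = 0.054), at log2 changes of 0.20 to 0.24. Against the negative control Gins3 also rose with si309 (log2 change 0.35, SE 0.09, adjusted p = 0.0017) and with si308 (log2 change 0.35, SE 0.09, adjusted p = 0.0017), in comparisons that share the negative control libraries.

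The polymerase genes held the largest falls of the whole set. Of 11 genes for polymerases and primase 9 fell and 1 rose with Chaf1a siRNA alone, with a median log2 change of -0.43. Pold2, the accessory subunit that ties the catalytic subunit of polymerase delta to the rest, lies at chr11:5872180-5878292 on the minus strand and had 61.1 and 63.5 CPM with si309, 72.4 and 67.5 CPM with si308, 56.3 and 53.2 CPM with Chaf1a siRNA alone, and 124 and 127 CPM in the negative control. It fell 2.29-fold with Chaf1a siRNA alone (log2 change -1.20, SE 0.06, adjusted p = 1.2e-13), to 43.6% of the negative control. Pold1, the catalytic subunit, had 76.2 and 80.8 CPM with si309, 88.6 and 85.3 CPM with si308, 74.65 and 82.1 CPM with Chaf1a siRNA alone, and 152 and 163 CPM in the negative control. It fell 2.01-fold (log2 change -1.01, SE 0.06, adjusted p = 2.3e-12), and its levels in the 6 Chaf1a siRNA libraries did not approach the controls. Pold3, a further subunit, fell less (log2 change -0.43, SE 0.06, adjusted p = 9.1e-07).

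Pola1, the catalytic subunit of polymerase alpha, had 227 and 208 CPM with si309, 254 and 238.5 CPM with si308, 213 and 220 CPM with Chaf1a siRNA alone, and 341 and 317 CPM in the negative control. It fell with Chaf1a siRNA alone (log2 change -0.60, SE 0.05, adjusted p = 1.3e-09), and the si308 libraries were the highest of the 6 with Chaf1a siRNA. Prim1, the catalytic subunit of primase, had 148 and 152 CPM with si309, 156 and 147 CPM with si308, 142 and 139 CPM with Chaf1a siRNA alone, and 197 and 192 CPM in the negative control. Every Chaf1a siRNA library lay below both controls (log2 change -0.47, SE 0.05, adjusted p = 2.2e-08), whereas the large primase subunit Prim2 was not called (log2 change 0.08, SE 0.06, adjusted p = 0.2). Pola2, the other subunit of polymerase alpha, fell by 0.34 on the log2 scale. In polymerase epsilon, Pole4 and Pole2 fell (log2 changes -0.47 and -0.32), the catalytic subunit Pole fell by 0.16 (adjusted p = 0.0049), and Pole3 rose. The Pole call was lost without replicate 1 of Chaf1a siRNA alone (adjusted p = 0.055), and with library totals its change was 0. Pole3, a small histone-fold subunit that pairs with POLE4, had 62.8 and 62.9 CPM with si309, 63.3 and 67.7 CPM with si308, 61.3 and 57.4 CPM with Chaf1a siRNA alone, and 52.8 and 50.9 CPM in the negative control. Both Chaf1a siRNA alone libraries lay above both controls (log2 change 0.20, SE 0.06, adjusted p = 0.0081), so this histone-fold pair changed in opposite directions. The authors' deposited table did not call the Pole3 rise (authors' adjusted p = 0.061). The Pole3 call was lost without replicate 1 of the negative control (adjusted p = 0.066) or replicate 0 of Chaf1a siRNA alone (adjusted p = 0.12).

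**Figure D3:**
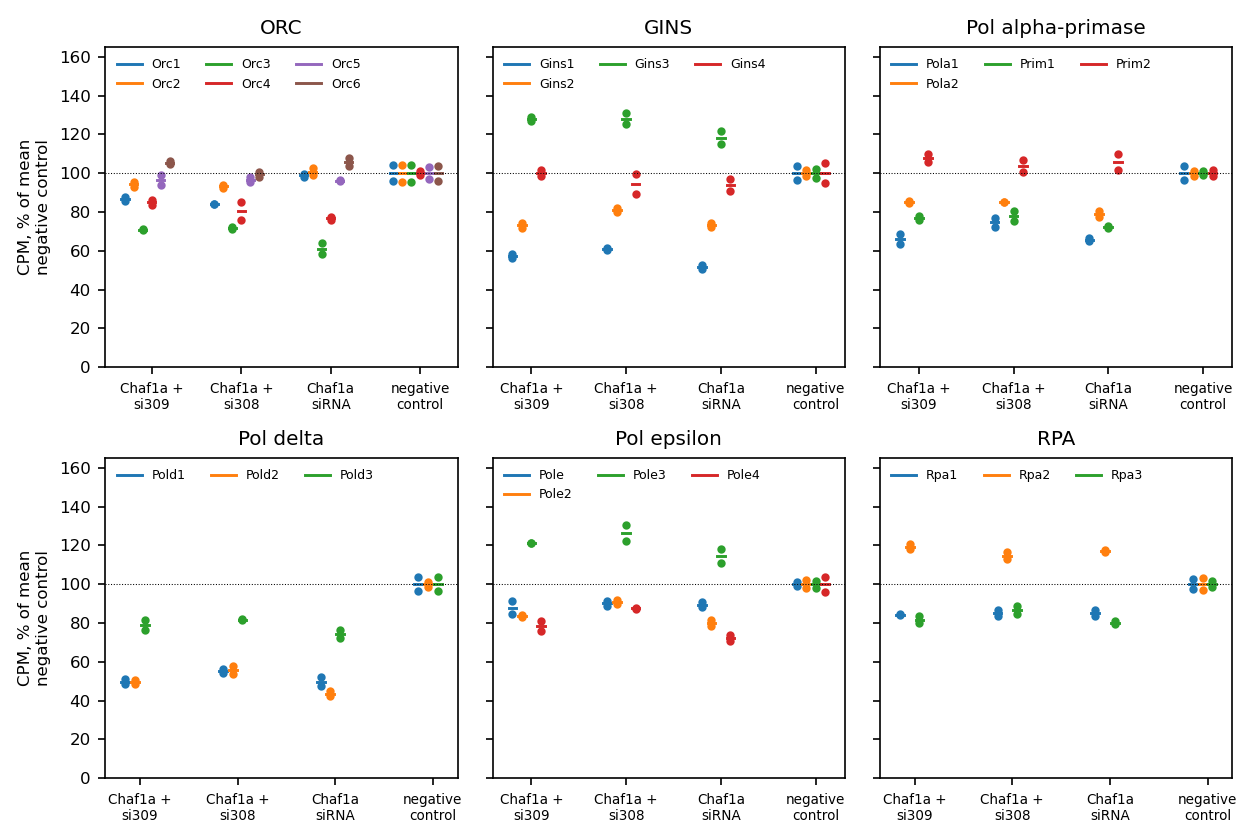
CPM of each subunit as a percentage of its mean in the negative control, in 6 complexes and the 4 groups; points are the 2 libraries of a group, short lines their mean, and the dotted line is 100%. Gins3, Pole3 and Rpa2 lie above the line in every Chaf1a siRNA group, as does Prim2, which was not called and averages 103.8% to 107.8%. Gins1, Pold1 and Pold2 average between 43.6% and 61.0%.

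Of the 9 genes for the clamp, its loader and RPA, 8 fell with Chaf1a siRNA alone and 1 rose, with a median log2 change of -0.27. Rfc4, a subunit of the loader that opens the clamp, had 68.4 and 77.35 CPM with si309, 73.3 and 75.4 CPM with si308, 67.9 and 66.8 CPM with Chaf1a siRNA alone, and 112 and 106 CPM in the negative control. It had the largest fall of this role (log2 change -0.69, SE 0.06, adjusted p = 2.3e-09). Rfc2, another loader subunit, had 126.5 and 135 CPM with si309, 138 and 142 CPM with si308, 119 and 124 CPM with Chaf1a siRNA alone, and 162 and 161 CPM in the negative control. Its Chaf1a siRNA alone libraries were the lowest of all groups (log2 change -0.41, SE 0.05, adjusted p = 3e-07). The other loader subunits fell by smaller amounts, with log2 changes of -0.21 for Rfc1, -0.33 for Rfc3 and -0.12 for Rfc5. The Rfc1 call was lost with library totals (log2 change -0.047, adjusted p = 0.35). The Rfc5 call was lost without replicate 0 of the negative control (adjusted p = 0.10) or replicate 0 of Chaf1a siRNA alone (adjusted p = 0.33), and with library totals its log2 change was 0.04. Pcna, the clamp itself, had 132 and 131 CPM with si309, 135 and 144 CPM with si308, 142 and 146 CPM with Chaf1a siRNA alone, and 173 and 173 CPM in the negative control. It was below both controls in every Chaf1a siRNA library (log2 change -0.27, SE 0.05, adjusted p = 5.3e-05). With library totals the Pcna call was lost (log2 change -0.11, adjusted p = 0.053). Its counts are uncertain, because the processed pseudogene Pcna-ps2 is 99.2% identical over 781 bases and took a similar number of counts, between 3785 and 6046 a library. With the counts of both summed, an alternative chosen after seeing the data, the log2 change with Chaf1a siRNA alone was -0.34 (SE 0.05, adjusted p = 1.3e-06).

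RPA, a trimer that coats single-stranded DNA, was also split. Rpa1, its large subunit, had 379.8 and 382 CPM with si309, 377 and 391 CPM with si308, 391 and 376.5 CPM with Chaf1a siRNA alone, and 464 and 439 CPM in the negative control. It fell slightly (log2 change -0.24, SE 0.04, adjusted p = 7e-05), as did the small subunit Rpa3, by 0.32. The Rpa1 call was lost with library totals (log2 change -0.075, adjusted p = 0.12). Rpa2, the middle subunit that is phosphorylated under replication stress, had 232 and 237 CPM with si309, 222.5 and 229 CPM with si308, 232 and 229 CPM with Chaf1a siRNA alone, and 203 and 191 CPM in the negative control. All 6 Chaf1a siRNA libraries lay above both controls (log2 change 0.23, SE 0.05, adjusted p = 0.00017), and this rise was called under all 14 alternatives run, with adjusted p between 1.8e-07 and 0.0044.

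Among the 7 genes for flap removal, ligation and fork protection 5 fell with Chaf1a siRNA alone and none rose, with a median log2 change of -0.25. Timeless, which with TIPIN couples the helicase to the polymerases, had 125 and 124 CPM with si309, 126.5 and 137.5 CPM with si308, 128.5 and 129.5 CPM with Chaf1a siRNA alone, and 229 and 239 CPM in the negative control. It fell 1.82-fold (log2 change -0.86, SE 0.05, adjusted p = 2.6e-12), and no Chaf1a siRNA library came near a control. Its partner Tipin had 234 and 238 CPM with si309, 245 and 238 CPM with si308, 212 and 209 CPM with Chaf1a siRNA alone, and 322 and 308 CPM in the negative control. Tipin fell less (log2 change -0.58, SE 0.04, adjusted p = 2.2e-10), and its level in the pool libraries lay above Chaf1a siRNA alone. Lig1, the ligase that seals Okazaki fragments, had 463 and 456 CPM with si309, 459 and 466 CPM with si308, 471 and 471 CPM with Chaf1a siRNA alone, and 678 and 694 CPM in the negative control. The 6 Chaf1a siRNA libraries held the same level within 456 to 471 CPM (log2 change -0.54, SE 0.04, adjusted p = 1.3e-10). Dna2, a nuclease and helicase that trims long flaps, had 111 and 108 CPM with si309, 99.35 and 101 CPM with si308, 113.5 and 105.5 CPM with Chaf1a siRNA alone, and 130 and 130 CPM in the negative control, a smaller fall (log2 change -0.25, SE 0.05, adjusted p = 0.00024) that was not called with library totals (log2 change -0.086, adjusted p = 0.14). Wdhd1, which links the helicase to polymerase alpha, fell by 0.15 (adjusted p = 0.014). That call was lost without replicate 0 of the negative control (adjusted p = 0.17) or replicate 1 of Chaf1a siRNA alone (adjusted p = 0.10), and with library totals the log2 change was 0.01. Clspn, the adaptor that carries the fork signal to CHK1, was not called (log2 change -0.04, SE 0.05, adjusted p = 0.56). Fen1, the main flap nuclease, had only 288 to 488 counts in a library and was not called (log2 change -0.10, SE 0.12, adjusted p = 0.47). Genes on the opposite strand overlap 84.2% of its exon bases, so its count is uncertain. Overlap with antisense genes also touched 67.3% of the exon bases of Gins2, 29.8% of Orc2 and 15.1% of Rfc2. The libraries are stranded, but whether counting used the strand is not given in the sources used here, so reads of these pairs may not be told apart. Near-identical copies also exist for Mcm7 (Gm5487, 97.7% over 2157 bases), Cdc6 (Gm9430, 95.2% over 1528 bases, at most 1 count in a library) and Rfc5 (Gm12870, 96.2% over 1020 bases, 46 to 116 counts in a library).

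**Figure D4:**
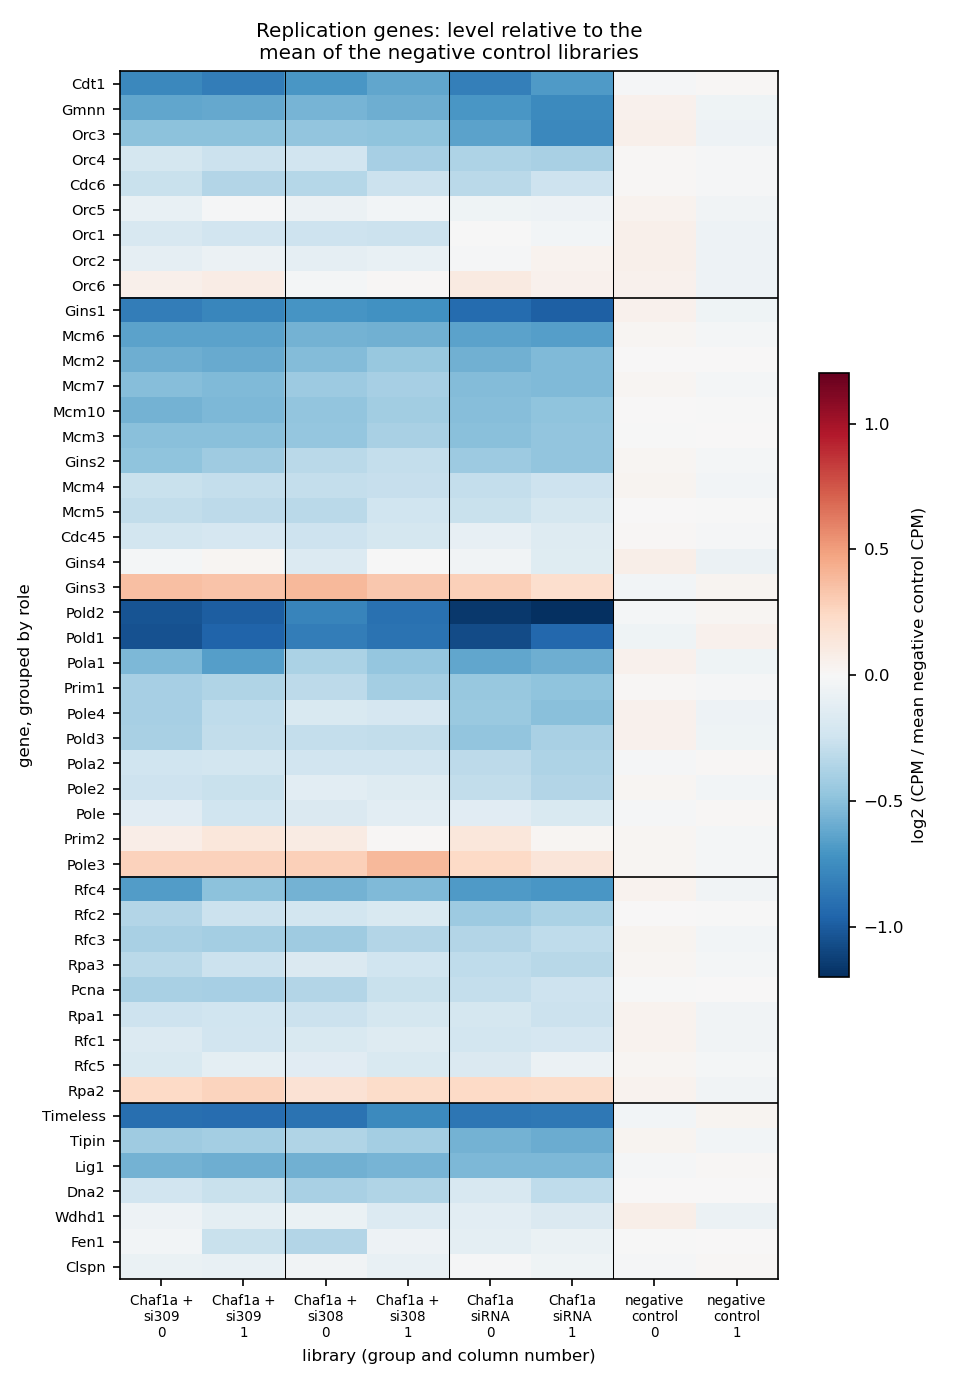
Level of the 48 replication genes in each of the 8 libraries as log2 of CPM over the mean of the negative control libraries, with genes grouped by role and ordered by change within it. Blue runs through the 6 libraries with Chaf1a siRNA for most genes, deepest for Pold2, Pold1, Gins1 and Timeless, and Gins3, Pole3 and Rpa2 are red in all 6. Prim2, which was not called, also lies slightly above its control mean in all 6.

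Levels per length set these changes in proportion. In the negative control, CPM per kilobase of merged exon was highest for Mcm3, at 246.5, followed by Mcm5 at 192, Mcm6 at 184.5 and Gmnn at 177. It was lowest for Fen1, at 4.84, and Gins3, at 5.62. The place of Fen1 is uncertain, because antisense genes overlap 84.2% of its exon bases and may affect its count. With Chaf1a siRNA alone Mcm3 stood at 176, Mcm5 at 162, Mcm6 at 117 and Gmnn at 106 CPM per kilobase. The catalytic subunits of polymerases delta and epsilon stood as follows on this scale. Pold1 had 16.1 CPM per kilobase with Chaf1a siRNA alone, against 32.4 in the negative control. Pole had 22.1 with Chaf1a siRNA alone, against 24.6 in the negative control. These are levels, with no test between genes.

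The pools against mDux removed most of the two-cell-like signal, as given above, and 10 replication genes were called with si308 added and 4 with si309 added. With si308 added, 8.92% of all genes tested rose and 12.9% fell against Chaf1a siRNA alone, as did 12.7% and 13.6% of genes in the CPM range. Taken over both directions, the replication genes were called no more often than either set. Of the 48 genes, 9 (18.8%) rose and 1 (2.08%) fell. The genes that rose were Pold2, Pole4, Tipin, Orc3, Rfc2, Gins1, Pola1, Pole2 and Gmnn, each of which had fallen with Chaf1a siRNA alone, in a comparison that uses the same Chaf1a siRNA libraries. The median log2 change of the 48 genes was 0.06, against 0.00 over all genes tested. The largest rise was that of Pold2 (log2 change 0.35, SE 0.06, adjusted p = 0.00014), which brought it to 55.7% of the negative control, against 43.6% with Chaf1a siRNA alone. Pole4 rose next (log2 change 0.28, SE 0.05, adjusted p = 0.00079), with 112 and 111 CPM with si308, against 94.1 and 90.5 CPM with Chaf1a siRNA alone. Tipin (log2 change 0.20, SE 0.04, adjusted p = 0.0028), Orc3 (log2 change 0.23, SE 0.06, adjusted p = 0.004) and Rfc2 (log2 change 0.21, SE 0.05, adjusted p = 0.0046) followed. Without replicate 1 of Chaf1a siRNA alone only 5 genes rose, the calls for Orc3, Gmnn, Gins1 and Pole2 being lost. Gmnn, Pola1 and Pole2 also lost theirs without replicate 0 of si308, and Pola1, Pole2 and Rfc2 without replicate 0 of Chaf1a siRNA alone.

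With si309 added, 3.24% of all genes tested rose and 7.61% fell against Chaf1a siRNA alone, as did 4.56% and 7.37% of genes in the CPM range. Here too the replication genes, over both directions, were called no more often than either set. Of the 48 genes, 3 (6.25%) rose and 1 (2.08%) fell. Those that rose were Orc3 (log2 change 0.21, SE 0.06, adjusted p = 0.013), Tipin (log2 change 0.16, SE 0.04, adjusted p = 0.019) and Pold2 (log2 change 0.19, SE 0.06, adjusted p = 0.048), each of which also rose with si308, in a comparison that shares the libraries with Chaf1a siRNA alone. The median log2 change of the 48 genes was 0.01. The gene that fell with either pool was Orc1, which was not called for Chaf1a siRNA alone against the negative control (log2 change -0.23, SE 0.05, adjusted p = 0.0013 for si308 and log2 change -0.19, SE 0.05, adjusted p = 0.012 for si309). The si309 calls were close to the threshold. Leaving out either replicate of si309, or replicate 1 of Chaf1a siRNA alone, left none of the 3 rises, leaving out replicate 0 of Chaf1a siRNA alone left 1, and the Orc1 call was lost without any 1 of these 4 libraries. In the fits that lost the call the log2 changes were 0.15 to 0.22 for Orc3, 0.15 to 0.18 for Tipin, 0.15 to 0.23 for Pold2 and -0.21 to -0.17 for Orc1. The Pold2 call was also lost with DESeq2 (log2 change 0.19, adjusted p = 0.057). Pcna and Orc4 came next and were not called (log2 change -0.13, SE 0.05, adjusted p = 0.098 for Pcna and log2 change 0.15, SE 0.06, adjusted p = 0.11 for Orc4).

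Between the pools no replication gene was called by edgeR's quasi-likelihood test, where 2.4% of all genes tested rose and 1.28% fell for si309 minus si308, and 2.8% and 2.06% did among genes in the CPM range. DESeq2 also called 0. At an unadjusted p under 0.05, 1 of the 48 was higher and 10 were lower with si309, where 8.66% of all genes tested were higher and 7.47% lower by the same threshold, as were 9.25% and 10.2% of genes in the CPM range. The smallest adjusted p-values were those of Pola1 (log2 change -0.18, SE 0.05, adjusted p = 0.059), Pole4 (log2 change -0.16, SE 0.05, adjusted p = 0.12), Pold2 (log2 change -0.17, SE 0.06, adjusted p = 0.13), Cdt1 (log2 change -0.14, SE 0.05, adjusted p = 0.17), Mcm2 (log2 change -0.11, SE 0.04, adjusted p = 0.18) and Dna2 (log2 change 0.13, SE 0.05, adjusted p = 0.19), the last of these higher with si309.

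**Figure D5:**
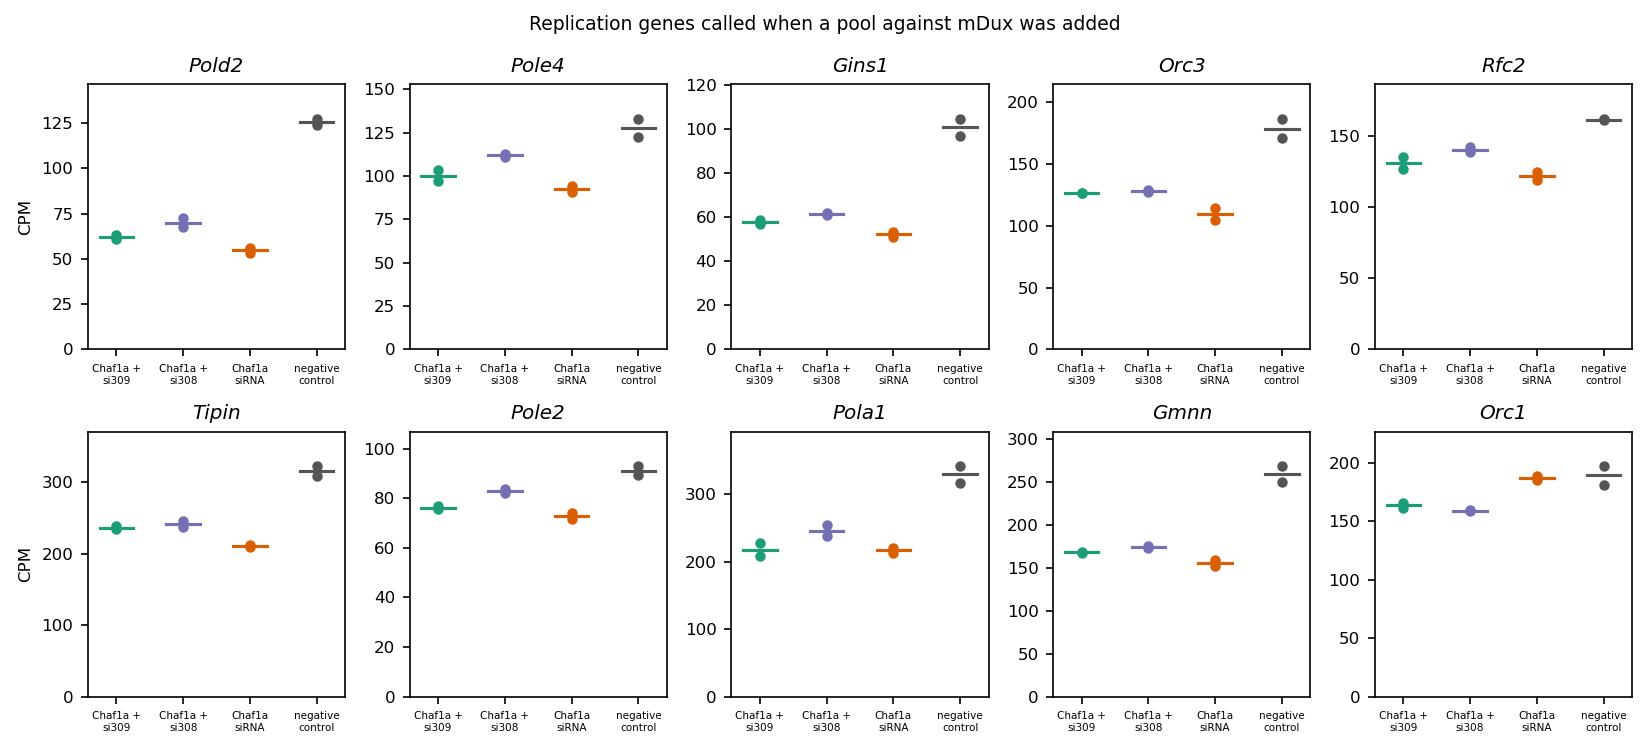
CPM in each library for the 10 replication genes called when si308 was added to Chaf1a siRNA, with points for libraries and lines for the mean of 2, from si309 on the left to the negative control on the right. For all but Orc1 the si308 libraries lie above those with Chaf1a siRNA alone and below the negative control; for Orc1 the libraries with either pool are the lowest.

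Against the negative control most replication genes also fell with either pool. With si309, 37 genes fell and 3 rose, where 30.7% of all genes tested fell and 34.8% rose, as did 46.5% and 26.8% of genes in the CPM range, and the median log2 change was -0.30. With si308, 38 fell and 3 rose, where 28.9% of all genes tested fell and 32.9% rose, as did 44.8% and 25.1% in the CPM range, and the median was -0.29. The 3 comparisons share the negative control libraries, so they are not independent. Pole3 rose with si309 (log2 change 0.28, SE 0.06, adjusted p = 0.00047) and with si308 (log2 change 0.34, SE 0.06, adjusted p = 6e-05), and so did Rpa2 (log2 change 0.25, SE 0.05, adjusted p = 5.4e-05 with si309 and log2 change 0.20, SE 0.05, adjusted p = 0.00076 with si308) and Gins3, given above. Orc1 was called lower against the negative control with si309 (log2 change -0.21, SE 0.05, adjusted p = 0.00081) and with si308 (log2 change -0.25, SE 0.05, adjusted p = 0.00013), and both calls were lost with library totals (log2 change -0.025 with si309 and -0.082 with si308, adjusted p = 0.65 and 0.14). Wdhd1 was called with si308 (log2 change -0.12, adjusted p = 0.046) and not with si309 (log2 change -0.09, adjusted p = 0.14), and si309 minus Chaf1a siRNA alone gave it a log2 change of 0.06 (adjusted p = 0.52). The Wdhd1 call with si308 was lost without replicate 0 of the negative control (adjusted p = 0.41), replicate 1 of si308 (adjusted p = 0.26), either library of Chaf1a siRNA alone (adjusted p = 0.058 and 0.054) or either si309 library (adjusted p = 0.055 and 0.057). Pold2 stood at 49.6% of the negative control with si309 and 55.7% with si308. Timeless stood at 53.3% with si309, 56.4% with si308 and 55.1% with Chaf1a siRNA alone.

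Other genes of the pathway, from lists written by hand, were measured in the same comparison of Chaf1a siRNA alone with the negative control, where 45.7% of genes in the CPM range fell and 28.3% rose. Of 20 fork accessory genes 16 fell and none rose, with a median log2 change of -0.34. Rnaseh2b, a subunit of the nuclease that removes ribonucleotides from DNA, averaged 97.1 ± 3.23 CPM with Chaf1a siRNA alone, against 182 ± 9.63 CPM in the negative control (log2 change -0.91, SE 0.05, adjusted p = 2.6e-12). Primpol, which reprimes stalled forks, averaged 17.7 ± 0.112 CPM with Chaf1a siRNA alone, against 43.75 ± 1.19 CPM in the negative control, and was the largest fall of that list (log2 change -1.31, SE 0.10, adjusted p = 1.6e-10). Ssrp1, a subunit of the histone chaperone FACT, fell by 0.47 (adjusted p = 1.1e-09). Of 10 genes of the ATR checkpoint, which responds to stalled forks, 9 fell and none rose, with a median of -0.475. Chek1, the kinase that carries the checkpoint signal, averaged 84.9 ± 1.17 CPM with Chaf1a siRNA alone, against 178 ± 5.34 CPM in the negative control (log2 change -1.06, SE 0.05, adjusted p = 7.4e-14), and Wee1 and Hus1 fell by 0.56 and 0.54. The log2 change of Chek1 was near the -1.01 of Pold1, while the adaptor Clspn was not called.

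Of 11 genes for the supply of deoxynucleotides 6 fell and 1 rose (54.5% and 9.09%), near the 45.7% of genes in the CPM range that fell, with a median of -0.21. Rrm1, the large subunit of ribonucleotide reductase, fell by 0.44, Dut by 0.45 and Rrm2b by 0.82. Of 15 genes for origin firing and other licensing 9 fell and 3 rose (60% and 20%), with a median of -0.28. In the CPM range 45.7% fell and 28.3% rose. Ticrr, which helps bring CDC45 to origins, fell by 0.47. Ccne2, the cyclin E2 that drives entry into S phase, rose and averaged 80.85 ± 1.15 CPM with Chaf1a siRNA alone, against 31.5 ± 1.22 CPM in the negative control (log2 change 1.36, SE 0.07, adjusted p = 1.3e-13). Mcm9, an MCM relative with a role in repair, also rose (log2 change 0.72, SE 0.09, adjusted p = 2.8e-07). Against the negative control it fell with either pool (log2 change -0.67, adjusted p = 2.1e-06 with si309 and -0.70, adjusted p = 1.4e-06 with si308). It averaged 13.05 ± 1.42 CPM with si309, 12.7 ± 0.537 CPM with si308, 34.2 ± 0.445 CPM with Chaf1a siRNA alone, against 20.8 ± 0.702 CPM in the negative control. Against Chaf1a siRNA alone its log2 change was -1.40, adjusted p = 9.3e-11 with si309 and -1.43, adjusted p = 5.6e-11 with si308.

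The E2F and pocket protein genes, which regulate many replication genes, went both ways, with 6 of 13 rising, 5 falling and a median of 0.06. The shares were 46.2% rising and 38.5% falling, against 28.3% and 45.7% of genes in the CPM range. Rbl1, a pocket protein that represses with E2F, averaged 39.6 ± 2.90 CPM with Chaf1a siRNA alone, against 74.0 ± 1.99 CPM in the negative control (log2 change -0.90, SE 0.07, adjusted p = 5.1e-10). Rb1, the retinoblastoma gene, averaged 62.3 ± 1.30 CPM with Chaf1a siRNA alone, against 37.2 ± 0.643 CPM in the negative control (log2 change 0.74, SE 0.07, adjusted p = 2.1e-09), and E2f5, a repressor E2F, fell by 0.56. Of 18 mitotic genes 10 fell and 3 rose, with a median of -0.14. The 55.6% that fell is near the 45.7% of genes in the CPM range. Bub1b, a spindle checkpoint kinase, fell by 0.66, Kif23 by 0.53 and Tpx2 by 0.33. The medians of -0.475 for the ATR checkpoint and -0.34 for the fork accessory genes stand beside -0.33 for the 48 replication genes, and the mitotic median of -0.14 beside -0.11 for genes in the CPM range. Differences between lists were not tested.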

How the data were processed

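The 8 polyA libraries were stranded and sequenced as paired reads of 125 bases, per the labels. The submitters' processing notes name Novoalign 2.8, mm10 and DESeq2; the counting tool, its annotation and its use of strand are not given in the sources used here. The authors deposited raw counts per gene, log2 fold changes and adjusted p-values against the negative control. The authors' log2 values and p-values were used only where their table is named. The count columns of a group carry the numbers 0 and 1. These name the replicates here and tie no column to a single label. The 8 columns of regularised log2 values that the authors deposited were not used.

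Counts were fitted with edgeR 4.0.16 in R 4.3.3 (filterByExpr, TMM, 1 mean per group, 4 residual degrees of freedom). The test was edgeR's quasi-likelihood F test, with Benjamini-Hochberg adjustment over the 17970 genes, and "fell", "rose" and "called" mean an adjusted p under 0.05. CPM used TMM factors. Alternatives were RLE factors, library totals, no filter, DESeq2 1.42.0, robust estimation, the column number as a block, and leaving out each library. The 2 libraries of a group differed by more than counting noise (chi-square per degree of freedom 2.87 to 5.5). Positions and exon lengths came from GENCODE M21, near-identical transcripts from BLAST 2.17.0 (at least 100 bases at 95% identity), and promoters from RefSeq. The members and the lists were chosen with earlier results of these data known, and so support nothing on their own. Named genes were up to 4 per role and 3 per further list with the smallest adjusted p for Chaf1a siRNA alone, up to 6 per pool comparison, and the genes that took the rarer direction.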

Additional observations from a re-analysis of the deposited data

How the results depend on the processing

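Under library totals the counts of replication genes raised were 8 for Chaf1a siRNA alone, 7 for si309 and 6 for si308, each against the negative control, and 24 fell with si308. The medians of all genes tested were then 0.22, 0.22 and 0.20 in these comparisons, against 0.06, 0.04 and 0.03 with TMM factors. Log2 changes that turned sign under library totals, for Chaf1a siRNA alone against the negative control, were 0.14 for Orc1, 0.10 for Orc5, 0.033 for Cdc45, 0.072 for Gins4, 0 for Pole, 0.04 for Rfc5, 0.057 for Fen1, 0.01 for Wdhd1 and 0.12 for Clspn. For si309 against the negative control they were 0.097 for Orc2, 0.13 for Orc5, 0.033 for Rfc5, 0.032 for Fen1, 0.094 for Wdhd1 and 0.094 for Clspn. For si308 against the negative control they were 0.068 for Orc2, 0.12 for Orc5, 0.16 for Orc6, 0.088 for Gins4, 0.017 for Pole, 0.03 for Pole2, 0.001 for Rfc1, 0.01 for Rfc5, 0.048 for Wdhd1 and 0.099 for Clspn. Some genes not called with TMM factors became called rises under library totals, against the negative control. With si309 these were Orc5, Orc6, Gins4 and Prim2 (edgeR adjusted p = 0.02, 7.5e-05, 0.011 and 0.00011). With si308 they were Orc5, Orc6 and Prim2 (adjusted p = 0.034, 0.0058 and 0.0017). Those with Chaf1a siRNA alone are given above. With DESeq2, Orc2 was -0.004 with Chaf1a siRNA alone and Gins4 -0.004 with si309, both near 0 in either fit.

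Leaving out 1 library at a time gave 34 to 38 genes lowered and 1 to 3 raised with Chaf1a siRNA alone, the 1 without its replicate 0. It gave 36 to 39 lowered and 3 to 4 raised for si309, and 35 to 39 lowered and 3 raised for si308, against the negative control. Against Chaf1a siRNA alone it gave 0 to 4 raised and 0 to 1 lowered with si309, and 5 to 11 raised and 1 lowered with si308. For si309 minus si308 it gave 0 to 1 lowered, the 1 without either negative control library, and 1 was also lowered with no filter and with the column number as a replicate block. Signs turned for genes not called: Orc1 (-0.081 to 0.036) and Orc2 (-0.056 to 0.07) with Chaf1a siRNA alone, Gins4 (-0.07 to 0.071) with si309 and Orc6 (-0.066 to 0.046) with si308. Other uncalled changes grew. Without replicate 0 of the negative control, Orc6 had 0.13 with Chaf1a siRNA alone. Without its replicate 1, Gins4 had -0.16 with Chaf1a siRNA alone, Orc2 -0.15 with si309 and -0.17 with si308, and Wdhd1 -0.16 with si309. Without replicate 1 of si308, Fen1 had -0.35 with si308. No effect shared by column number was seen, with correlations of replicate differences over all genes tested between -0.04 and 0.04 over pairs of groups. Such correlations cannot show that the samples were unpaired. The replicate block moved no other count by more than 1.5 times. The cause of these shifts was not tested beyond the scaling itself.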
